A study of Mus musculus with 39 samples.

Results

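RNA from microglia of the embryonic mouse brain was compared between the last pair of sampled stages, E18.5 and E16.5, with 3 libraries at each stage. These 6 libraries were all the microglia libraries of these stages in the R8 series of library names, out of 39 libraries in the whole study. The study sorted microglia and border-associated macrophages (BAM) by flow cytometry from brains of time-mated C57Bl/6 embryos, counting the day of the vaginal plug as E0.5, and sequenced full-length cDNA made from total RNA. All groups used here were C57Bl/6, and the labels name no further allele or treatment: microglia at E16.5, microglia at E18.5 and, for reference, BAM at the same stages, also with 3 libraries each. The labels do not give the antibodies of the sort gate, and they do not say whether the libraries of a stage came from separate embryos or litters. The p-values therefore measure the spread between libraries, which may be technical. That spread was estimated over all 23 libraries of the R8 series, including those of E12.5 and E14.5. Replicate numbers below only name the libraries, in accession order.

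Microglia are the resident macrophages of the brain parenchyma, while BAM sit at its borders in the meninges, the perivascular spaces and the choroid plexus. Microglia arise from yolk sac progenitors, enter the brain early and then expand by division inside it, so genes of the cell cycle are part of their developmental record. Cells that copy DNA express replication genes such as the minichromosome maintenance (MCM) helicase, and cells about to divide express mitotic genes such as cyclins, Plk1 and Top2a, many of which share promoter elements called the cell cycle genes homology region and the CCAAT box. Interferon acts on macrophages through STAT and IRF factors that bind the interferon-stimulated response element, and it raises antiviral genes and the machinery of antigen presentation by MHC class I.

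The start regions of 6 genes that were higher at E18.5 show these elements side by side. Each sequence is the 150 bases just before the annotated gene start, from RefSeq (GRCm38.p6), written 5′ to 3′ on the strand of the gene. Capitals mark matches on either strand to TTTGAA, the core of the cell cycle genes homology region, to the CCAAT box, or to the core of the interferon-stimulated response element, which is GAAA repeated after any 2 bases. The first 4 genes are mitotic, Oas1a is an antiviral gene and B2m encodes the light chain of MHC class I.
Top2a, chr11:99024190-99024339, minus strand: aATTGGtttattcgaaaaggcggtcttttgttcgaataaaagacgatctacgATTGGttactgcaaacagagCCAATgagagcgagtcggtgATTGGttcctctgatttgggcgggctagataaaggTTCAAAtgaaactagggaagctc
Ube2c, chr2:164769779-164769928, plus strand: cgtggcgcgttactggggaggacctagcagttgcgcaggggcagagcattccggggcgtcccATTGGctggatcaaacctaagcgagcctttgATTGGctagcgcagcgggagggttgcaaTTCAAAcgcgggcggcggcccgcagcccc
Kif11, chr19:37376232-37376381, plus strand: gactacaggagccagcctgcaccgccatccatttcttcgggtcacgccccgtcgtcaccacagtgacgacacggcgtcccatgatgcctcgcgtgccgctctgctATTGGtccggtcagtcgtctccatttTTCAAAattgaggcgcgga
Ccnb1, chr13:100786487-100786636, minus strand: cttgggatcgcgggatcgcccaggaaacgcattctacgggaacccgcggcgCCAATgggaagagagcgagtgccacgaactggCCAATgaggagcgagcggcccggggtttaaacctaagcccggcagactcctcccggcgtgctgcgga
Oas1a, chr5:120907526-120907675, minus strand: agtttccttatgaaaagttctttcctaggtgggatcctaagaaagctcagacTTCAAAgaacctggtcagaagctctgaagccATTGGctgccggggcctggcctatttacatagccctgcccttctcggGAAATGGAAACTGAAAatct
B2m, chr2:122147537-122147686, plus strand: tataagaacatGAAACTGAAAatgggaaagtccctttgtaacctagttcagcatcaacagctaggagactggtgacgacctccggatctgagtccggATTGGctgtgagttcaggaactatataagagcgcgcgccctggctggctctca
The Top2a window held 4 CCAAT matches and 1 TTTGAA match, and the Ube2c window held 2 and 1. In Oas1a, 2 overlapping matches to the interferon element form a single capital stretch near the start. Over a window of 250 bases before the start, CCAAT was found in 25 of the 38 genes called higher that had a RefSeq window (65.8%), against 34.5% of 27025 RefSeq genes. TTTGAA was found in 13 of these 38 (34.2%), against 16.3% of all windows. The interferon element was found in 3 of the 38 (7.89%), against 3.04% of all windows. Of the 6 genes called lower that had a window, CCAAT was in 3 (50%), TTTGAA in 0 and the interferon element in 0. The RefSeq windows were not limited to the tested genes. In the list of mitotic genes CCAAT was in 18 of 22 windows (81.8%), and TTTGAA in 7 (31.8%). In the list of interferon response genes the interferon element was in 13 of 24 windows (54.2%) and CCAAT in 10 (41.7%). In the MHC class I list CCAAT was in 12 of 17 windows (70.6%) and the interferon element in 2 (11.8%). A match is a string of letters and no evidence of binding.

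The 6 libraries carried the identity of microglia. Tmem119 stood at 995 to 1140 CPM (counts scaled to a common library size with TMM factors, the unit of all levels below) at E16.5 and at 987 to 1101 CPM at E18.5. P2ry12 was at 1785 to 1925 and 1820 to 2341 CPM, and Sall1 at 313 to 365 and 328 to 407 CPM. Of the genes that mark BAM, Mrc1 was at 317 to 545 and 518 to 601 CPM, Lyve1 at 6.07 to 36.2 and 8.39 to 15.1 CPM, and Pf4 at 2.36 to 19.3 and 2.34 to 7.50 CPM. The summed level of 30 BAM core genes was 4310 to 5800 CPM in the E16.5 microglia and 4660 to 4910 CPM in those of E18.5, against 42400 to 55700 CPM over the 6 BAM libraries. Library totals were 15 to 18.1 M counts at E16.5 and 10.7 to 19.5 M at E18.5, with 20464 to 21489 and 19679 to 21721 genes detected. The mitochondrial share was 2.25 to 3.01% and 2.08 to 3.11%, and the 50 most abundant genes took 20.5 to 21.5% and 21.7 to 22.7% of the counts.

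Few genes passed the test between the stages, and nearly all of those that did were higher at E18.5. Of 20450 genes tested with edgeR, 54 were called at an adjusted p of at most 0.05 (0.264%), 47 of them higher (0.23%) and 7 lower (0.0342%) at E18.5. The fitted change was at least 2-fold in 14 of the 54. At an unadjusted p under 0.05, 1114 genes were higher and 944 lower, so the imbalance was much smaller below the threshold. The libraries of the 2 stages did not overlap for 1798 genes that were higher (8.79%) and 1794 that were lower (8.77%), and all 54 called genes were among these. The median log2 fold change was -0.01 over all tested genes and 0.06 over the 7820 genes with a mean log2 CPM of at least 4. Because RNA was pooled from many cells, a change in the number of cells of a type and a change of RNA per cell cannot be told apart.

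The number of calls depended on which libraries entered the fit. Without E18.5 replicate 2 it was 3 higher and 0 lower, without E16.5 replicate 2 it was 2 and 0, and without E16.5 replicate 1 it was 5 and 1. It was 10 and 1 without E16.5 replicate 3, 22 and 4 without E18.5 replicate 3, and 50 and 5 without E18.5 replicate 1. In the settings with 0 genes called lower, edgeR gave 700 (without E18.5 replicate 2) and 834 (without E16.5 replicate 2) lower genes at an unadjusted p under 0.05, and DESeq2 on all libraries called 183 higher and 93 lower. All 54 genes kept their direction in each of these fits, with an unadjusted p under 0.05. They were chosen by their calls in these same libraries, which favours this outcome.

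**Figure D1:**
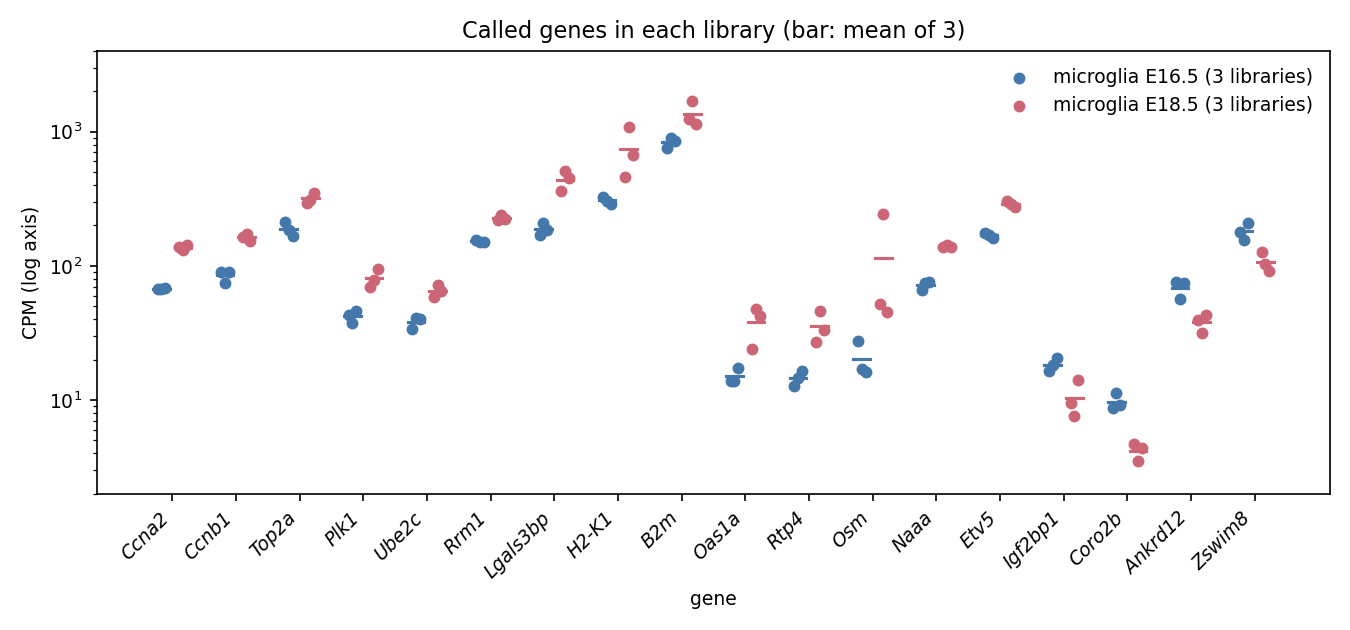
Level of 18 called genes in each microglia library (points, CPM on a log axis), with the mean of the 3 libraries of a stage as a bar, E16.5 in blue and E18.5 in red. The points of the 2 stages do not overlap for any gene shown, and for Osm a single E18.5 library lies at 245 CPM, far above the other 2 at 45.2 and 52.4 CPM.

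Genes of mitosis were higher in E18.5 microglia. Of 26 mitotic genes, 10 were called higher and 0 lower, 22 lay without overlap above E16.5 and the median log2 fold change was 0.70, against -0.01 over all tested genes. Among all tested genes 0.23% were called higher and 8.79% lay without overlap above E16.5. Cyclin A2, encoded by Ccna2 (chr3:36564865-36572150, minus strand, GRCm38), drives cells through DNA synthesis and into mitosis. Ccna2 was at 66.6, 67.6 and 68.8 CPM in the E16.5 libraries and at 137, 130 and 142 CPM in those of E18.5, a log2 fold change of 1.01 ± 0.13 (SE; edgeR adjusted p = 0.0013). The 3 libraries of each stage were close together and lay far from those of the other stage. Ccnb1 encodes cyclin B1, which starts mitosis. It stood at 90.6, 74.2 and 90.2 CPM before and at 164, 172 and 154 CPM after (0.94 ± 0.14, edgeR adjusted p = 0.0054). Top2a encodes the topoisomerase that untangles chromosomes, and it was at 213, 186 and 168 CPM at E16.5 and at 295, 309 and 351 CPM at E18.5 (0.75 ± 0.12, edgeR adjusted p = 0.0080). Plk1, a kinase of mitotic entry, went from 43.1, 37.7 and 45.8 to 69.8, 77.8 and 94.2 CPM (0.93 ± 0.17, edgeR adjusted p = 0.025). In all 3 genes every E18.5 library was above every E16.5 library.

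The other mitotic genes called higher were Kif11, Kif20a and Kif23, motors of the spindle and the midbody, Bub1b of the spindle checkpoint, Ccnb2, a second B-type cyclin, and Ube2c, which tags cyclins for destruction. Their log2 fold changes ran from 0.74 (Kif20a) to 0.93 (Kif11). Nek2, a kinase that parts the centrosomes, was outside the list and went from 25.8, 26.5 and 21.3 to 43.8, 48.0 and 59.8 CPM (1.05 ± 0.18, edgeR adjusted p = 0.014). Ect2, which directs the cleavage furrow, went from 26.8, 27.6 and 22.5 to 57.7, 46.7 and 44.9 CPM (0.96 ± 0.19, edgeR adjusted p = 0.035). Both sets of libraries were apart. Mki67, the widely used proliferation marker, did not pass the test: its levels were 328, 223 and 181 CPM and 290, 315 and 348 CPM, which overlap (0.38 ± 0.19, edgeR adjusted p = 0.50). The other mitotic genes with overlapping libraries were Cenpf, Aurkb and Cenpe. The count of called mitotic genes was 11 without E18.5 replicate 1, 3 without E18.5 replicate 3, E16.5 replicate 1 or E16.5 replicate 3, and 1 without E18.5 replicate 2 or E16.5 replicate 2, while the median of the list stayed between 0.59 and 0.72 in these fits. DESeq2 called 16 of the 26.

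The replication list had a smaller median than the mitotic list. Of 30 genes of DNA replication, 1 was called higher and 0 lower, 12 lay without overlap above E16.5 and the median was 0.31. The shares over all tested genes were 0.23% called higher and 8.79% without overlap above. The called gene was Rrm1, the large subunit of the enzyme that makes deoxynucleotides. Rrm1 was at 156, 151 and 149 CPM at E16.5 and at 220, 238 and 224 CPM at E18.5 (0.58 ± 0.12, edgeR adjusted p = 0.035), with no overlap, but it was not called in any of the 6 fits that left out a library. Mcm4, a helicase subunit, had the largest fitted change of the list at 0.59 ± 0.15 (edgeR adjusted p = 0.11), with 90.9, 70.9 and 76.0 against 126, 108 and 123 CPM. Mcm5, another subunit, was at 149, 151 and 172 and at 194, 186 and 187 CPM (0.27 ± 0.12, edgeR adjusted p = 0.45). The libraries were apart for both genes although neither passed.

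Earlier stages place this step in a longer course, here described without a test. The mean log2 CPM of the mitotic list in microglia was 6.57 at E12.5, 6.43 at E14.5, 5.76 at E16.5 and 6.41 at E18.5. E16.5 was thus the lowest of the 4 stages, and each of its libraries (5.73 to 5.80) was below each library of the other stages. At E18.5 the libraries spanned 6.28 to 6.52, around the E14.5 libraries at 6.40 and 6.46. The DNA replication list gave 6.27, 5.98, 5.59 and 5.85 over the same stages, so its E18.5 level stayed below that of E14.5. Ccna2 was also lowest at E16.5, with means of 133 ± 27 (SD, n = 3), 121 ± 8.3 (n = 2), 67.6 ± 1.1 (n = 3) and 136 ± 5.9 CPM (n = 3).

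**Figure D2:**
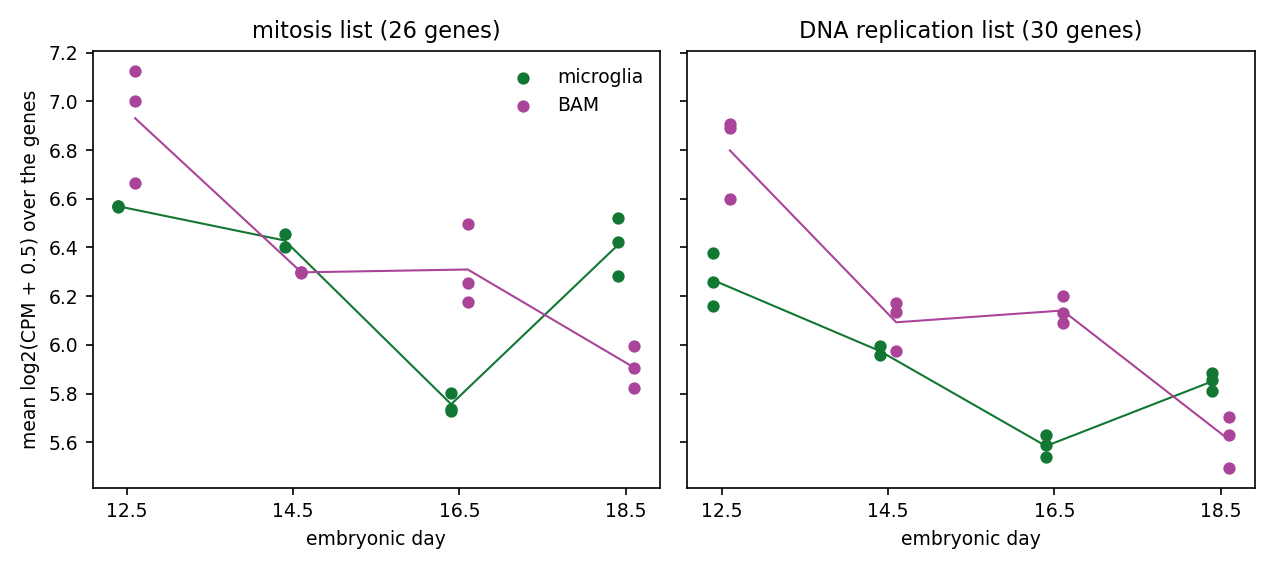
Mean log2(CPM + 0.5) over the mitosis list (left) and the DNA replication list (right) in each library of the R8 series (points) by embryonic day, microglia in green and BAM in purple, with lines through the stage means. In the mitosis list the E16.5 microglia lie lowest at 5.76 on average and the E18.5 microglia at 6.41, while the BAM go from 6.31 to 5.91.

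Over the same step some cell cycle genes changed differently in BAM, by a test of the difference gene by gene. The difference of the steps, microglia minus BAM, was called for 51 genes (0.249%), 47 with a larger log2 change in microglia (0.23%) and 4 with a smaller one (0.0196%). All 47 had a positive fitted change in microglia and a negative one in BAM, which choosing genes by this difference favours. Among them, 20 belonged to the mitosis or the DNA replication list, which held 26 and 30 of the 20450 tested genes. Of the 47 genes called higher in the microglial step, 22 were also called in the difference. Both tests contain the same microglial change, so this overlap is favoured as well and is no independent support. In BAM itself the step called 13 genes higher (0.0636%) and 9 lower (0.044%). None of the mitotic list was among the 9, at a median of -0.42 with 15 of 26 genes without overlap below E16.5 (9.13% of all tested genes). Of the replication list 4 of 30 were called lower in BAM, at a median of -0.56.

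Among genes with a mean log2 CPM of at least 4 over the microglia and BAM libraries of both stages, Nek2 had the largest difference. It was 1.69 ± 0.25 (SE; edgeR adjusted p = 0.0037). Nek2 rose by 1.05 in microglia, while in BAM it was at 33.4 to 39.5 CPM at E16.5 and at 19.5 to 27.6 CPM at E18.5. Shcbp1, a midbody protein of dividing cells, differed by 1.62 ± 0.25, Plk1 by 1.54 ± 0.25, Ndc1, a nuclear pore protein, by 1.498 ± 0.24, and Ccnb1 by 1.43 ± 0.19. Cenpi, a centromere protein, differed by 1.43 ± 0.27 (edgeR adjusted p = 0.015) without being called in the microglial step alone. Replication genes entered here too: Uhrf1, which carries DNA methylation through replication, differed by 1.25 ± 0.19 (edgeR adjusted p = 0.0037), with 0.43 ± 0.13 in microglia and -0.82 in BAM. Mcm2, Mcm4, Mcm5 and Mcm6 were called as well, with differences of 0.93 (Mcm5) to 1.23 (Mcm6). Not all the genes were of the cell cycle. Lpl, the lipase that frees fatty acids from lipoproteins, was at 348, 384 and 356 CPM at E16.5 and at 517, 514 and 557 CPM at E18.5 in microglia, and fell in BAM from a mean of 147 ± 12 to 79.7 ± 3.8 CPM (SD, n = 3), a difference of steps of 1.43 ± 0.20 (edgeR adjusted p = 0.0022). The 4 genes with a smaller change in microglia were Coro2b, given below, and Apcdd1, Smad7 and Cntnap2, with differences of -3.33, -2.42 and -4.99 at low levels. Pkm, the last enzyme of glycolysis, differed by 0.87 ± 0.18 (edgeR adjusted p = 0.039).

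The count of differing genes was 24 without E16.5 microglia replicate 2, 30 and 29 without E18.5 microglia replicates 2 and 3, and 32 without E16.5 microglia replicate 1. It was 24 without E16.5 BAM replicate 3 and 22 without E18.5 BAM replicate 2. The BAM libraries also shifted in markers of other cells. The summed level of 15 endothelial markers was 147 to 165 CPM in E16.5 BAM and 235 to 442 CPM in E18.5 BAM, and that of 15 radial glia and astrocyte markers was 120 to 145 and 237 to 468 CPM. In microglia these sums were 198 to 206 and 212 to 247 CPM for endothelial markers and 190 to 304 and 214 to 313 CPM for glial ones. Their part in the difference was not tested.

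**Figure D3:**
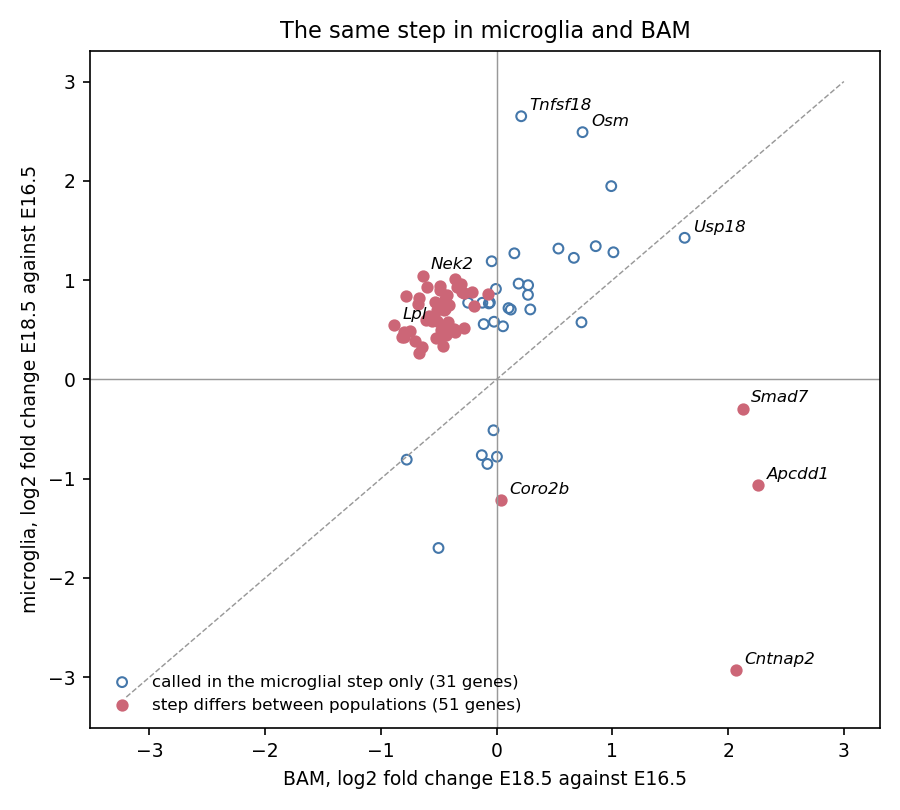
Log2 fold change from E16.5 to E18.5 in microglia (vertical) against BAM (horizontal) for the 51 genes whose step differed between the populations (filled) and for the 31 others called in the microglial step (open), with a dashed line of equal change. Filled points gather where microglia are positive and BAM negative, as for Nek2 and Lpl, while interferon genes such as Usp18 are positive in both. These genes were chosen by their values on these axes.

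Genes of MHC class I presentation also included called members, among which H2-K1 had the smallest p and Nlrc5 the largest fitted change. Of 19 genes, 3 were called higher and 0 lower, 10 lay without overlap above E16.5 and the median was 0.47. Over all tested genes 0.23% were called higher, 8.79% lay without overlap above and 1114 of 20450 were higher at an unadjusted p under 0.05. H2-K1 (chr17:33996017-34000333, minus strand), a heavy chain that presents peptides to CD8 T cells, was at 326, 306 and 289 CPM at E16.5 and at 460, 1090 and 670.4 CPM at E18.5 (1.27 ± 0.21, edgeR adjusted p = 0.0080). B2m, its light chain, was at 757, 900 and 847 and at 1243, 1697 and 1141 CPM (0.70 ± 0.14, edgeR adjusted p = 0.035). Nlrc5, the factor that switches on this gene set, was at 3.07, 6.20 and 4.95 and at 8.87, 21.2 and 24.6 CPM (1.95 ± 0.42, edgeR adjusted p = 0.049). The stages did not overlap for any of the 3, and within E18.5 replicate 1 or replicate 3 was the lowest. The peptide transporter Tap1 was at 77.1, 83.0 and 74.0 and at 92.3, 127 and 131 CPM (0.58 ± 0.17, edgeR adjusted p = 0.18). H2-K1 shares long stretches with other MHC class I genes, and the sources used here do not say how reads matching several genes were counted. Without E18.5 replicate 2 the H2-K1 change was 0.87 (edgeR adjusted p = 0.064), and the list had 0 called genes at a median of 0.31. It also had 0 without any one of the E16.5 libraries, 2 without E18.5 replicate 3 and 4 without E18.5 replicate 1. At an unadjusted p under 0.05 13 of the 19 were higher in the full set, and DESeq2 called 6.

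The interferon response list moved in the same direction, unevenly over the E18.5 libraries. Of 33 genes, 3 were called higher (Oas1a, Usp18 and Rtp4) and 0 lower, 13 lay without overlap above E16.5 and the median was 0.85. Among all tested genes 0.23% were called higher and 8.79% lay without overlap above. At an unadjusted p under 0.05, 1114 of all 20450 were higher and 944 lower. Oas1a makes the messenger that activates RNase L against viral RNA. It was at 14, 13.7 and 17.3 CPM at E16.5 and at 24, 47.7 and 42.3 CPM at E18.5 (1.34 ± 0.26, edgeR adjusted p = 0.030). Its near-identical paralogs make its count uncertain. Usp18, which removes ISG15 from proteins and dampens interferon signalling, was at 5.21, 6.71 and 7.28 and at 9.75, 21.4 and 20.2 CPM (1.43 ± 0.29, edgeR adjusted p = 0.037). Rtp4, an interferon-induced receptor transporter, was at 12.7, 14.7 and 16.45 and at 27.0, 46.0 and 33.3 CPM (1.28 ± 0.26, edgeR adjusted p = 0.039). In each of these genes E18.5 replicate 1 was the lowest of its stage yet above all E16.5 libraries. The stages overlapped for the other 20 members. Irf7, a master factor of the response, was at 26.3, 40.1 and 21.8 and at 17.7, 94.4 and 72.8 CPM (1.07 ± 0.40, edgeR adjusted p = 0.35). Over the list, the median deviation from the mean of the 6 libraries was -0.35 in E18.5 replicate 1, 0.96 in replicate 2 and 0.68 in replicate 3, against -0.51 to -0.23 at E16.5. Without E18.5 replicate 1, 9 genes were called at a median of 1.21, and without any other of the 6 libraries 0 were, at medians of 0.59 (without E18.5 replicate 2) to 0.93. In the full set 22 of the 33 had an unadjusted p under 0.05 and DESeq2 called 7.

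The same list was higher in BAM over this step, at a median of 0.86 with 23 of 33 genes without overlap above E16.5, against 7.09% of all tested genes. Usp18 was called in BAM as well, with means of 10.3 ± 1.2 and 31.8 ± 6.2 CPM (SD, n = 3). None of the 33 genes was called in the difference between the populations, against 0.249% of all tested genes. In a list this short that is close to the share, so it does not show that the steps were equal.

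Lgals3bp, a secreted glycoprotein that binds galectin-3, had the smallest p of all tested genes. Lgals3bp (chr11:118392751-118402092, minus strand) was at 169, 210 and 186 CPM at E16.5 and at 358, 513 and 448 CPM at E18.5 (1.22 ± 0.14, edgeR adjusted p = 0.00039). The stages were apart, and with Ccna2 it was the only gene of the 54 still called in each of the 6 fits that left out a library. Its microglial means were 184 ± 30, 152 ± 15, 188 ± 21 and 439 ± 78 CPM (SD) from E12.5 to E18.5, a level set apart at the last stage. In BAM it was at 234 to 250 CPM at E16.5 and at 359 to 407 CPM at E18.5.

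Several cytokine and chemokine genes, Osm, Tnf, Ccl3 and Ccl4 among them, had their highest level in E18.5 replicate 2. Of 27 cytokine and chemokine genes, 1 was called higher and 0 lower, 8 lay without overlap above E16.5 and the median was 0.90. Over all tested genes 0.23% were called higher, 8.79% lay without overlap above and 1114 of 20450 were higher at an unadjusted p under 0.05. The called gene was Osm, a cytokine of the interleukin-6 family. It was at 27.7, 17.1 and 16.1 CPM at E16.5 and at 52.4, 245 and 45.2 CPM at E18.5 (2.49 ± 0.51, edgeR adjusted p = 0.037). All E18.5 libraries were higher, and without replicate 2 the log2 change was 1.25 (edgeR adjusted p = 0.39). Tnf, the tumour necrosis factor, was at 8.55, 7.62 and 6.61 and at 13.1, 117 and 13.4 CPM (2.66 ± 0.64, edgeR adjusted p = 0.095), and its change was 0.79 without replicate 2. Il1b was at 5.48, 12.8 and 6.50 and at 5.75, 103 and 10.2 CPM, so that it overlapped between the stages apart from that library (2.26 ± 0.88, edgeR adjusted p = 0.38). The chemokine genes Ccl3 (330.2, 321 and 260 CPM against 417, 1000.3 and 330.4 CPM) and Ccl4 (213, 144 and 102 CPM against 260, 870 and 184 CPM) had their highest value in the same library. Without E18.5 replicate 2 the median of the list was 0.32 and 0 genes were called. Osm was also not called without any one of the E16.5 libraries, while without E18.5 replicate 1 or replicate 3 2 cytokine genes were called. In the full set 12 of the 27 had an unadjusted p under 0.05, and DESeq2 called 2.

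That library also stood highest in the NF-kB pathway and the immediate early genes, which respond within minutes to stimulation and to handling of cells. Of 18 NF-kB genes 0 were called by edgeR (4 higher at an unadjusted p under 0.05, 2 called by DESeq2), at a median of 0.34 that was 0.11 without E18.5 replicate 2. Nfkbia, the inhibitor that NF-kB itself induces, was at 102, 75.6 and 69.3 and at 183, 857 and 112 CPM (2.22 ± 0.55, edgeR adjusted p = 0.10). Of 25 immediate early genes 0 were called by edgeR (9 higher at an unadjusted p under 0.05, 0 called by DESeq2), at a median of 0.81 that was 0.45 without E18.5 replicate 2 and 1.39 without E16.5 replicate 1. Among all 20450 tested genes edgeR called 0.264%, and 1114 were higher at an unadjusted p under 0.05. Fos was at 1114, 389.9 and 289 and at 1273, 1388 and 670.1 CPM, and Nr4a1 at 28.5, 22.7 and 18.7 and at 34.1, 412 and 29.97 CPM. For Fos E16.5 replicate 1 was above E18.5 replicate 3, and for Nr4a1 E18.5 replicate 2 stood alone. The part of cell handling in the cytokine values was not tested.

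**Figure D4:**
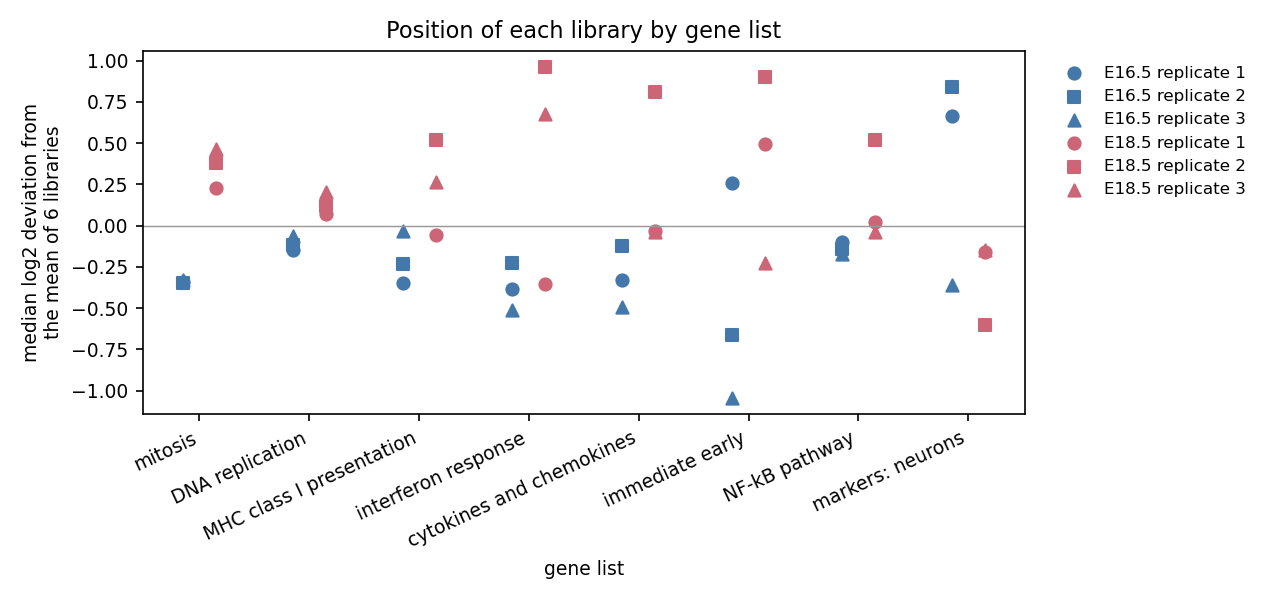
Median log2 deviation of 8 gene lists in each of the 6 libraries from the mean of those libraries, E16.5 in blue and E18.5 in red, with a marker shape for each replicate. The stages are apart for mitosis in all libraries, E18.5 replicate 1 lies among the E16.5 libraries for the interferon list (-0.35), and E18.5 replicate 2 lies highest for the cytokine (0.81), immediate early (0.90) and NF-kB (0.52) lists.

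Further genes that rose touched metabolism, lipid signals and transcription. Naaa, the lysosomal acid amidase that degrades palmitoylethanolamide, was at 66.2, 74.9 and 75.9 CPM at E16.5 and at 138, 143 and 137 CPM at E18.5 (0.95 ± 0.15, edgeR adjusted p = 0.0080). Etv5, an ETS transcription factor downstream of growth factor signalling, was at 174, 168 and 162 and at 304, 287 and 273 CPM (0.77 ± 0.14, edgeR adjusted p = 0.022). It was the only called gene among 38 macrophage transcription factors, against 0.264% called of all tested genes. Pfkfb3, which makes the activator of glycolytic flux fructose 2,6-bisphosphate, was at 235, 198 and 178 and at 309, 516 and 366 CPM (0.96 ± 0.20, edgeR adjusted p = 0.038). Slc16a1, a lactate and monocarboxylate transporter, was at 40.1, 29.6 and 37.9 and at 64.1, 57.3 and 62.5 CPM (0.77 ± 0.16, edgeR adjusted p = 0.037). Hif3a, a member of the hypoxia-inducible factor family, was at 30.4, 19.7 and 20.1 and at 59.1, 58.4 and 43.0 CPM (1.19 ± 0.24, edgeR adjusted p = 0.035). None of these genes had overlapping stages. The largest fitted change among the 54 was that of Tnfsf18, the ligand of the receptor GITR, a gene of low level at 0.768, 1.68 and 1.33 CPM before and 9.36, 5.28 and 9.03 CPM after (2.65 ± 0.43, edgeR adjusted p = 0.0080).

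The 7 genes that fell were of different kinds. Coro2b (chr9:62419492-62537044, minus strand), an actin-binding coronin, was at 8.72, 11.2 and 9.17 CPM at E16.5 and at 4.68, 3.54 and 4.36 CPM at E18.5 (-1.21 ± 0.20, edgeR adjusted p = 0.0080). In BAM it was at 71.9 to 86.3 and 62.5 to 92.5 CPM, and the steps of the populations differed by -1.25 ± 0.26 (edgeR adjusted p = 0.039). Igf2bp1, an RNA-binding protein of fetal tissues, was at 16.3, 18.3 and 20.4 and at 9.56, 7.57 and 14 CPM (-0.81 ± 0.17, edgeR adjusted p = 0.045). Its means in microglia were 172 ± 23 CPM at E12.5 and 69.5 ± 3.9 CPM at E14.5 (SD, n = 3 and 2), so the last step continued a decline that was already steep. In BAM the means fell from 220 ± 21 CPM at E12.5 to 41.4 ± 1.9 CPM at E18.5. Igf2bp1 was the only called gene of 18 oncofetal and timing genes, whose median was -0.44. In the list 4 members lay without overlap below E16.5 and 0 above, against 8.77% and 8.79% of all tested genes. The 4 were Igf2bp1, Mest, Sox11 and Igf2. Mest was at 29.9, 28.2 and 20.6 against 14.1, 10.9 and 12.8 CPM (edgeR adjusted p = 0.23). Sox11 was at 161, 153 and 93.6 against 60.3, 48.7 and 57.2 CPM (edgeR adjusted p = 0.26). Igf2 was at 0 to 0.581 CPM. The largest fitted falls were also near the floor, in Lin28a (0 to 0.548 CPM) and Hbb-bh1 (0 to 0.258 CPM), which is an erythroid marker as well. Igf2bp1 stayed called without E18.5 replicate 3 and was not called in the other 5 fits that left out a library. Igf2bp3 was at 69.8 to 74.9 and 60.2 to 87.5 CPM (0.07 ± 0.15) and Lin28b at 8.39 to 19.5 and 11.3 to 18 CPM (0.05 ± 0.37), and neither passed the test. The others that fell were Ankrd12 (75.2, 56.9 and 74.5 against 39.5, 31.7 and 43.3 CPM), Anks1 (53.1, 51.4 and 57.7 against 25.6, 37.3 and 31.6 CPM), Zswim8, Sidt2 and Prkar2b, a regulatory subunit of protein kinase A at 0.691 to 4.52 CPM.

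Genes of microglial identity did not pass the test. Of 25 microglia core genes, 0 were called by edgeR and 0 by DESeq2, against 0.264% of all tested genes called by edgeR. In a list this short 0 calls are close to that share, so they do not show that the genes stayed level. At an unadjusted p under 0.05, 7 were higher and 0 lower, against 1114 and 944 of all 20450 tested genes. In the list 11 lay without overlap above E16.5, against 8.79% of all tested genes, and the median was 0.23. Csf1r, the receptor on which microglia depend, was at 9755, 9904 and 9003 and at 12160, 11778 and 11576 CPM (0.31 ± 0.11, edgeR adjusted p = 0.34). Cx3cr1, the fractalkine receptor, was at 5293, 4796 and 5074 and at 5797, 5899 and 6274 CPM (0.25 ± 0.14, edgeR adjusted p = 0.57). The stages were apart for both genes. For Tmem119 (-0.02 ± 0.20), P2ry12 (0.12 ± 0.19), Sall1 (0.08 ± 0.34), Siglech (0.10 ± 0.19) and Trem2 (-0.10 ± 0.12) the stages overlapped.

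Genes of the amoeboid microglia that gather in axon tracts around birth were likewise not called. Of 28 such genes 0 were called by edgeR (7 higher at an unadjusted p under 0.05, 3 called by DESeq2), at a median of 0.24. Spp1, the secreted phosphoprotein osteopontin, was at 691, 915 and 1614 CPM at E16.5 and at 2109, 2624 and 2388 CPM at E18.5 (1.15 ± 0.25, edgeR adjusted p = 0.058). Its stages did not overlap, and its microglial means went from 188 ± 65 CPM at E12.5 over 611 ± 82 and 1073 ± 482 CPM to 2374 ± 258 CPM (SD). Without E16.5 replicate 3, the highest of its stage, the Spp1 change was 1.56 and passed (edgeR adjusted p = 0.011). Gpnmb (56.4, 111 and 178 against 133, 181 and 179 CPM), Igf1 (97.9, 111 and 185 against 150, 144 and 152 CPM) and Clec7a (54.1, 77.5 and 92.0 against 62.7, 67.1 and 56.1 CPM) overlapped between the stages. Of 35 genes of adult-type maturation 0 were called by edgeR (3 higher and 3 lower at an unadjusted p under 0.05, 0 by DESeq2). Of 32 lysosomal genes 0 were called (8 higher at an unadjusted p under 0.05, 3 by DESeq2). In these lists, too, 0 calls by edgeR are close to the 0.264% called among all tested genes. At an unadjusted p under 0.05, 1114 of all 20450 tested genes were higher and 944 lower.

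**Figure D5:**
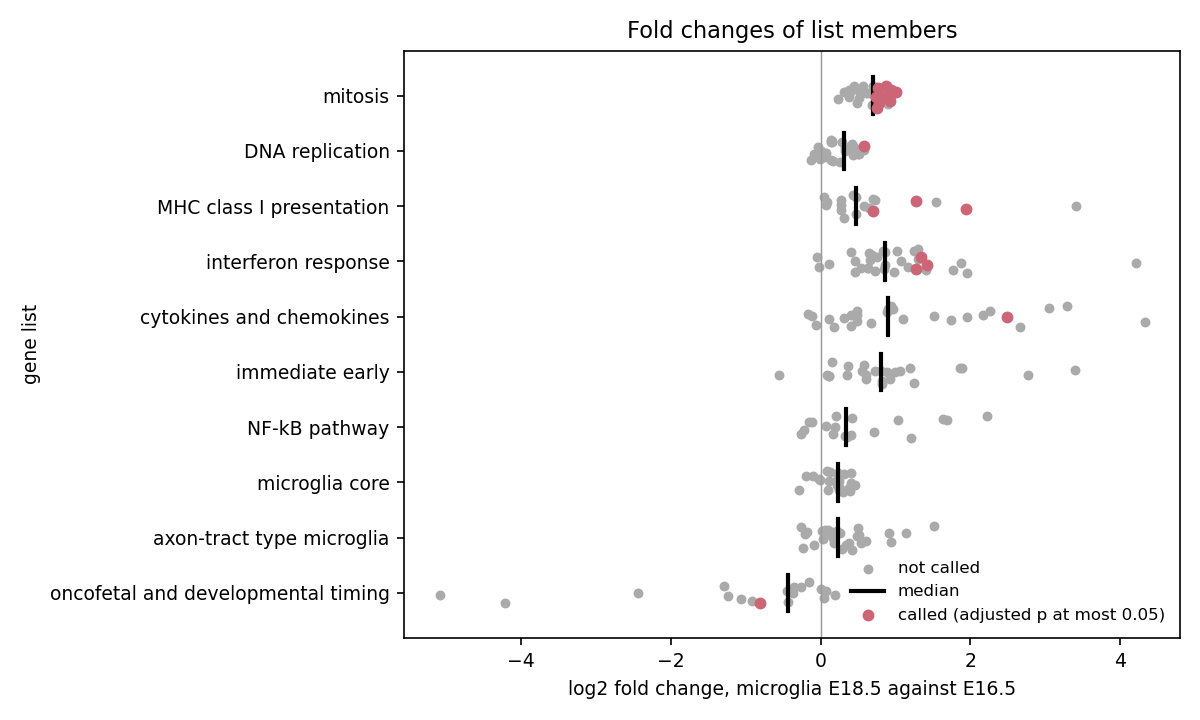
Log2 fold change of microglia from E16.5 to E18.5 for each tested member of 10 gene lists (points, spread vertically for visibility), with called members in red and the list median as a black bar. The mitosis list has 10 called members around its median of 0.70 and the microglia core has none around 0.23. The oncofetal list, some of whose members are near 0 CPM, lies at -0.44.

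Markers of other cells were present at low levels and varied between libraries. The summed level of 21 neuronal markers was 190 to 452 CPM at E16.5 and 160 to 245 CPM at E18.5, with 0 of 21 called and 6 without overlap below E16.5. Erythroid markers summed to 353 to 650 and 235 to 337 CPM, with 0 of 13 called and 5 without overlap below E16.5. Of all tested genes 0.264% were called and 8.77% lay without overlap below E16.5. In lists this short 0 calls are close to the first share, while both counts without overlap are above the second. Monocyte markers summed to 64.5 to 131 CPM at E16.5 and to 104 to 463 CPM at E18.5, with 0 of 11 called and a median log2 fold change of -0.25. The highest sum was mostly Nr4a1 in E18.5 replicate 2, given above as an immediate early gene, and the other 10 markers summed to 45.7 to 102 and 50.7 to 74.7 CPM. Ccr2, the chemokine receptor of inflammatory monocytes, was at 42.9, 20.1 and 24.1 and at 10.53, 4.998 and 6.80 CPM (-1.97 ± 0.78, edgeR adjusted p = 0.38). Granulocyte and mast cell markers summed to 5.84 to 20.6 and 5.90 to 8.0 CPM, and 6 of the 18, among them Elane, Mpo and Ly6g, had no count in the 6 libraries. The part of these cells in the lower levels at E18.5 was not tested.

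A further E18.5 microglia library with a name of the R10 series was kept out of the comparison, because the series and the library cannot be told apart. It lay above all E16.5 libraries in 46 of the 47 genes called higher, the exception being Fam118a, and below them in 7 of the 7 called lower. Over all tested genes it lay above in 27.3% and below in 30.7%.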

How the data were processed

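Per the labels' protocols, RNA was extracted with a PicoPure kit and made into libraries with a modified Smart-seq2 protocol and Nextera XT, then sequenced as paired ends. Per the submitters' processing notes, STAR, featureCounts and the build GRCm38 were used. Versions, annotation release, strand setting and the treatment of reads matching several genes are not given in the sources used here. The deposited table holds read counts per gene, with gene positions and lengths, as the authors made it. No replicate libraries were duplicates (chi-square per degree of freedom 16.2 to 43.9).

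The 23 libraries of the R8 name series (8 groups, 15 degrees of freedom left; a coefficient of variation of 44.21% common to all genes) were fitted in edgeR 4.0.16 under R 4.3.3, with filterByExpr (20450 of 53379 genes, 99.95% of counts), TMM factors, quasi-likelihood tests and Benjamini-Hochberg adjustment over all tested genes. Levels in CPM are counts scaled by TMM library sizes, log levels use a pseudocount of 0.5, and ± is the standard error unless marked SD. The procedure was tested on simulated data with counts drawn independently for each library. A link between libraries of adjacent numbers, described below, was not covered by that. DESeq2 1.42.0 served as an alternative, beside glmTreat, other filters, factors, library sets and left-out libraries. An exact test of 3 against 3 cannot go below p = 0.1, so single genes were tested only in the joint fit.

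The comparison and the gene lists (51 lists) were chosen with earlier results of these data known. Genes named were the 12 largest called changes each way with a mean log2 CPM of at least 4, up to 4 called members per list, a panel, and up to 6 genes each way for the difference from BAM. For the last of these the same cut was applied to the mean over the microglia and BAM libraries of both stages. The other genes named, such as Tnfsf18, Lpl, Pkm, Uhrf1, Mcm4, Tap1, Irf7, Nfkbia, Nr4a1 and further members of the mitosis list, were chosen after their values were seen.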

Additional observations from a re-analysis of the deposited data

Results flagged for a closer look

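The step from E16.5 to E18.5 differed between microglia and BAM for 7 named genes, by the edgeR test of the difference itself. They had a mean log2 CPM of at least 4 over the microglia and BAM libraries of both stages. Coro2b passed this cut through its BAM levels, as its mean log2 CPM in the microglia was 2.78. The difference, microglia minus BAM on the log2 scale, was 1.69 for Nek2, 1.62 for Shcbp1, 1.54 for Plk1, 1.498 for Ndc1, 1.43 for Cenpi, 1.43 for Ccnb1 and -1.25 for Coro2b. The range over all alternative settings was 1.55 to 1.82 for Nek2, 1.497 to 1.73 for Shcbp1, 1.24 to 1.69 for Plk1, 1.34 to 1.71 for Ndc1, 1.13 to 1.53 for Cenpi, 1.23 to 1.53 for Ccnb1 and -1.42 to -1.15 for Coro2b. The first 6 are genes of dividing cells or of the nuclear pore, and Coro2b encodes a coronin.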

How the results depend on the processing

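The numbers of calls were not stable. All 54 genes called in the step and all 51 called in the difference kept their sign in every alternative. They were chosen by their calls in these same libraries, and the stages did not overlap for any of the 54. Kept signs were thus favoured in advance and are no independent support. Among the other 44 named genes, 12 changed sign in some setting. The main counts were 47 genes higher, 7 lower, 14 called with at least 2-fold, and 51 differing from BAM, and they became 0, 0, 0 and 0 when tested against a 1.5-fold change with glmTreat (256 higher and 385 lower at an unadjusted p under 0.05). Without the filter on low counts they were 232, 151, 182 and 342, and with DESeq2 183, 93, 78 and 169. With the compared libraries alone the counts for the step were 7, 1 and 4, and with the 11 microglia libraries of the R8 series alone they were 4, 0 and 2 (edgeR; 1014 higher and 1110 lower at an unadjusted p under 0.05). With all 39 libraries 3 genes were lower, and with the R10 library added to E18.5 the step counts were 89, 25 and 32. Leaving out a library gave 2 to 50 genes higher, 0 to 5 lower, 2 to 27 with at least 2-fold and 22 to 56 differing from BAM. The causes of these shifts were not tested. With 3 libraries a stage and 10.7 to 19.5 M counts each, genes of low level were measured least precisely. For the step within microglia, no paired analysis was possible because nothing in the labels links an E16.5 library to an E18.5 library. Microglia and BAM libraries have adjacent library numbers, though the labels do not say that these share embryos. A replicate block of adjacent numbers, chosen after seeing the data, gave 130 genes differing from BAM, including all 51. Deviations from the group means correlated at 0.061 to 0.475 within these pairs over 7820 genes, and each of the 6 microglia libraries correlated best with its own neighbour, a hint from the data and not from the design.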
